A study of Drosophila melanogaster with 4 samples.

Results

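The regions described here are the clusters of JHDM1 enrichment on the left arm of chromosome 2 (2L) of Drosophila melanogaster. They are all rows of the authors' combined cluster list that carry the sequence name 2L, which gave 1886 of 11598 clusters. The samples were wild-type Oregon-R (Oregon-R-modENCODE) embryos of 14 to 16 h, a population that holds all embryonic cell types together and carries no transgene. Chromatin was crosslinked with 1.8% formaldehyde. Antibody Q2634, raised against JHDM1, was incubated for 15 h in the 2 ChIP samples, and 2 input samples stood beside them. Each ChIP replicate also had its own cluster list, with 798 clusters on 2L in replicate 1 and 792 in replicate 2. Whether the replicates were collected separately is not in the labels, and the spread between them may be technical only.

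JHDM1 (KDM2) is a JmjC-domain enzyme, an iron-dependent oxygenase that removes methyl groups from lysine 36 of histone H3, a mark laid down over transcribed genes. It also carries a CXXC zinc finger, which in mammalian KDM2 proteins binds CpG-rich DNA, and an F-box. In flies it was purified with the RING subunit of Polycomb complexes, which adds ubiquitin to histone H2A. ChIP-seq finds where such a protein lies by sequencing the DNA that an antibody pulls down, and a cluster is a stretch in which the authors found significant enrichment. Positions are given on FlyBase release 5 and counted from 1, so they run from the telomere side of 2L to its centromere side. The assembled arm is 23011544 bases long. No genome or annotation of that release was used here, so regions carry no gene name and no sequence is printed.

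A combined cluster counts as found in a replicate where it overlaps a cluster of that replicate by 1 base or more. On 2L, both replicates held 538 of 1886 combined clusters, or 28.5% (95% exact Clopper-Pearson interval 26.5 to 30.6%), against 27.7% over all sequences of the list. A further 225 were found in replicate 1 only (11.9%, against 11.4% over all sequences). Another 220 were found in replicate 2 only (11.7%, against 11.5%). The other 903 were found in neither list (47.9%, interval 45.6 to 50.2%, against 49.5%). All shares of 2L lay close to those of the whole list. These intervals cover counting error only and treat neighbouring clusters as independent, and since the combined list comes from the same samples, no test applies.

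The replicate lists shared most of their clusters on this arm. In replicate 1, 551 of 798 clusters (69.0%, interval 65.7 to 72.2%) overlapped a cluster of replicate 2, against 69.6% over all sequences. In replicate 2, 549 of 792 (69.3%, interval 66.0 to 72.5%) overlapped one of replicate 1, against 69.3% over all sequences. Both lists covered about the same length of 2L, 1.65 Mb in replicate 1 and 1.62 Mb in replicate 2 (mean 1.64 ± 0.0193 Mb, SD, n = 2), and the Jaccard index of the covered bases was 0.499. The combined list covered 3.81 Mb, or 16.6% of the arm.

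The first 10 Mb of 2L, on the telomere side, held more clusters per Mb than the rest of the arm. In the first 5 Mb the combined list held 505 clusters, with 208 in replicate 1 and 204 in replicate 2. From 5 to 10 Mb there were 493, with 222 and 225 in the replicates. The next stretches held fewer, with 380 combined clusters from 10 to 15 Mb (154 and 140) and 341 from 15 to 20 Mb (148 and 145). The last 3.01 Mb held 167, with 66 in replicate 1 and 78 in replicate 2.

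Per Mb, the replicates had 41.2 ± 0.566 clusters in the first stretch and 44.7 ± 0.424 in the second (mean ± SD, n = 2). They had 29.4 ± 1.98 in the third, 29.3 ± 0.424 in the fourth and 23.9 ± 2.82 in the last. As averages of these stretches, the replicate values of the first 10 Mb did not overlap those beyond. The gap was larger than the spread between replicates. Single bins of 1 Mb did overlap across 10 Mb. From 10 to 11 Mb the replicates held 46 and 39 clusters and from 19 to 20 Mb 41 and 48, against 36 in each from 3 to 4 Mb. Both replicates were densest from 5 to 10 Mb, above the first 5 Mb. The stretches from 10 to 15 Mb and from 15 to 20 Mb lay within the replicate spread of each other, and the last stretch lay below both in each replicate. That low value rests on the final Mb: from 20 to 22 Mb there were 72.0 combined clusters per Mb and 29.0 and 35.0 in the replicates, against 22.7 combined and 7.91 in each replicate beyond 22 Mb. From 15 to 20 Mb the combined list had 68.2 per Mb. Across the 23 full bins of 1 Mb, the combined count and the distance from the telomere-side end had a Spearman's rho of -0.65 and a Pearson's r of -0.66. This correlation is across bins of 1 list and describes that list only.

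**Figure D1:**
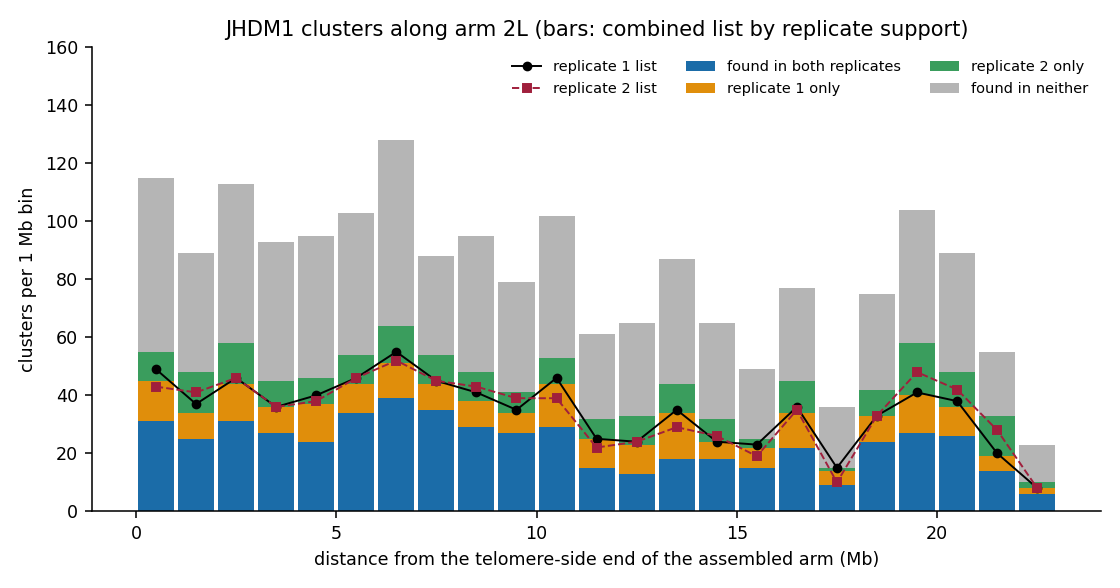
Clusters per 1 Mb bin along 2L (bars: combined list, split by the replicates in which a cluster was found; lines: the cluster lists of replicate 1 and replicate 2). The bars reach 128 at 6 to 7 Mb, drop to 36 at 17 to 18 Mb, return to 104 at 19 to 20 Mb and end at 23; the replicate lines follow the same course.

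Counts also varied between neighbouring bins. The fullest bin was that from 6 to 7 Mb, with 128 combined clusters, 55 in replicate 1 and 52 in replicate 2, and the clusters covered 27.5% of it. Other bins with over 100 combined clusters on this side were those from 0 to 1 Mb with 115, from 2 to 3 Mb with 113, from 5 to 6 Mb with 103 and from 10 to 11 Mb with 102. The count then dropped to 61 in the bin from 11 to 12 Mb, where the replicates went from 46 and 39 to 25 and 22.

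Farther toward the centromere, the bin from 17 to 18 Mb was sparse. It held 36 combined clusters, 15 in replicate 1 and 10 in replicate 2, over 5.80% of its length. A second dense stretch followed nearby. From 19 to 20 Mb there were 104 combined clusters, 41 in replicate 1 and 48 in replicate 2, over 22.7% of the bin. The last full bin, from 22 to 23 Mb, held 23 combined clusters and 8 in each replicate, and none lay in the 11544 bases after it.

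Dense and sparse bins were largely shared by the replicates. Their cluster counts had a Spearman's rho of 0.92 and a Pearson's r of 0.94 over the 23 full bins of 1 Mb, and 0.90 and 0.89 over 115 bins of 200 kb. These bins belong to the same pair of samples, so the values describe the pair. Counts in 1 Mb bins varied more than their mean, with a variance 3.95 times the mean in replicate 1, 4.12 times in replicate 2 and 8.11 times in the combined list.

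At a finer scale, most of the fullest stretches also lay on the telomere side, with 1 exception among the 5 named here. Of the 115 bins of 200 kb, the fullest 23 held 655 combined clusters, or 34.7%, and the emptiest 23 held 114, or 6.04%. The fullest bin was 2L:400001-600000, with 36 combined clusters, 15 in replicate 1 and 12 in replicate 2, over 42.5% of its length. The next was on the centromere side, at 2L:19000001-19200000, with 35, 13 and 18. Then came 2L:4800001-5000000 with 32 (18 and 14) and 2L:2800001-3000000 with 31 (12 and 13). The bin at 2L:5000001-5200000 held 30 (16 and 14) and was the first of 3 bins with that count. Of these 5 named bins 4 lay in the first 5.2 Mb, and in all of them the replicate lists held at least 12 clusters each, against a median of 7 in each list over all such bins.

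Spacing was also wider beyond 10 Mb. Neighbouring combined clusters were separated by a median of 3790 bases, with quartiles of 1103 and 11241 bases. In the replicates the median was 13373 bases in replicate 1 and 11914 in replicate 2 (mean 12643.5 ± 1032, SD, n = 2). The combined median was 3003 bases in the first 5 Mb and 3318 from 5 to 10 Mb. Beyond, it was 4939 from 10 to 15 Mb, 3806.5 from 15 to 20 Mb and 5219 in the last stretch.

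Short and long distances occurred side by side. Of 1885 spacings in the combined list, 1069 (56.7%) were under 5 kb and 446 (23.7%) under 1 kb. In contrast, 68 spacings were longer than 50 kb and together took up 22.7% of the arm. These long spacings numbered 9 in the first 5 Mb and 8 in the next, then 16, 23 and 12 in the stretches that followed.

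**Figure D2:**
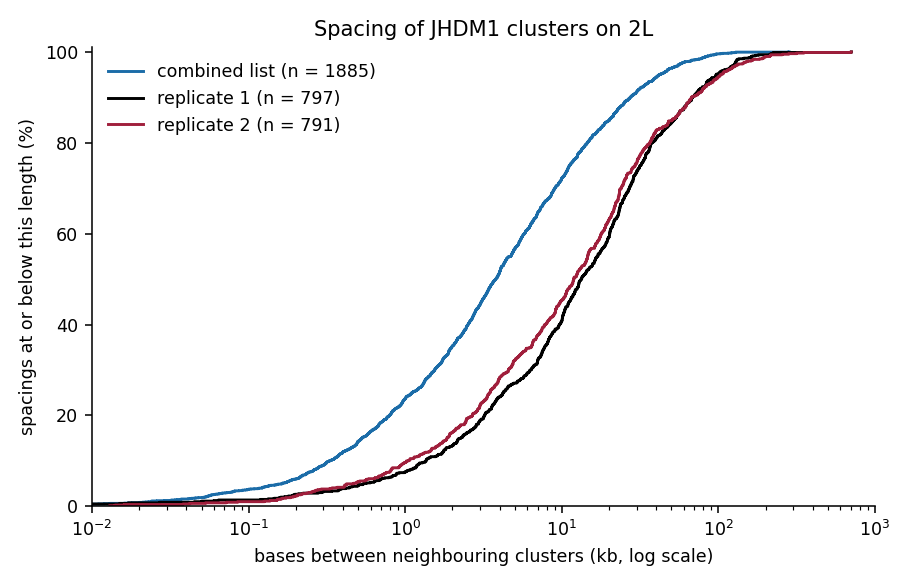
Cumulative share of the distances between neighbouring clusters on 2L (x axis: distance in kb, log scale) for the combined list and each replicate list. The combined curve lies to the left, with a median of 3790 bases, and both replicate curves run together at medians of 13373 and 11914 bases.

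Clusters joined by spacings under 5 kb formed runs. The combined list fell into 817 runs, of which 439 were lone clusters (23.3% of all clusters on 2L). Runs of 5 or more clusters numbered 98 and held 721 clusters, or 38.2%. Replicate support was similar for lone and grouped clusters, with 27.3% of lone clusters and 28.7% of those in runs of 5 or more found in both replicates.

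The longest run, at 2L:507150-575230, had 17 combined clusters over 68.1 kb, with 6 clusters in replicate 1 and 5 in replicate 2. It lies in the fullest 200 kb bin. Both runs of 13 were better supported. At 2L:6034492-6100022, 8 of the 13 clusters were found in both replicates, and the run held 11 clusters of replicate 1 and 9 of replicate 2. At 2L:4963941-5018394, 7 of 13 were found in both, with 9 and 8 replicate clusters.

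Empty stretches gathered on the centromere side. The longest without a combined cluster was 2L:22591818-22874105, of 282.3 kb. The next were 2L:15553755-15682341 with 128.6 kb, 2L:17132072-17259680 with 127.6 kb and 2L:17779345-17901975 with 122.6 kb. The fifth, 2L:12222928-12342858, had 119.9 kb. Of the 8 spacings over 100 kb, 6 lay between 15 and 20 Mb and 0 in the first 10 Mb. Only 1 full bin of 200 kb held no combined cluster, 2L:22600001-22800000.

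The replicate lists had longer empty stretches, and both lists had the longest in the same place. Replicate 1 had no cluster over 706.3 kb at 2L:22167849-22874161, and replicate 2 none over 704.7 kb at 2L:22169471-22874153. The combined list held 8 clusters in this stretch, with a median score of 0.475, against 0.420 over the arm, and none wider than 1841 bases. Other stretches over 200 kb free of clusters in both replicates were 2L:17561602-17777271, with 8 combined clusters inside, and 2L:11583122-11795950, with 2 inside.

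Some empty stretches were found in 1 replicate only. In replicate 2, 351.6 kb at 2L:16908198-17259758 held no cluster, while replicate 1 had 2 there. Also in replicate 2, 255.5 kb at 2L:12109675-12365213 were empty where replicate 1 had 5 clusters. In replicate 1, 224.2 kb at 2L:21398364-21622530 held none where replicate 2 had 3.

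At the telomere end, the combined list began before both replicate lists. Its first cluster was 2L:17562-19003, with a score of 0.270 and no cluster of either replicate on it. Replicate 1 began at 2L:58321-60048 and replicate 2 at 2L:65839-68162. Toward the centromere, the last cluster found in both replicates was 2L:22874106-22875962, which scored 0.220 in the combined list and 0.344 and 0.315 in the replicates. The last of all was 2L:22971147-22973315, found in replicate 1 only, which left 38229 bases of assembled sequence after it.

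Replicate support was highest from 5 to 10 Mb and lowest from 10 to 15 Mb. The share found in both was 33.3% (exact interval 29.1 to 37.6%) from 5 to 10 Mb, which lay above the value of the whole arm, and 24.5% (20.2 to 29.1%) from 10 to 15 Mb. It was 27.3% in the first 5 Mb, 28.4% from 15 to 20 Mb and 27.5% beyond. Of the replicate 1 clusters, 75.2% overlapped one of replicate 2 from 5 to 10 Mb and 59.7% from 10 to 15 Mb, and of the replicate 2 clusters 75.1% and 65.7% overlapped one of replicate 1. No test of this difference was run. Among 1 Mb bins it ran from 20.0% at 12 to 13 Mb to 39.8% at 7 to 8 Mb. The 95% exact interval held the value of the whole arm in 22 of 23 bins, the exception being the bin at 7 to 8 Mb. Intervals of 95% miss in some cases by construction, and the value of the arm includes every bin and stretch. The bin at 7 to 8 Mb was therefore not read as different. Across bins the share and the combined count had a Spearman's rho of 0.23 and a Pearson's r of 0.24. At the sparse end, from 22 to 23 Mb, 6 of 23 clusters were found in both replicates (26.1%, interval 10.2 to 48.4%).

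**Figure D3:**
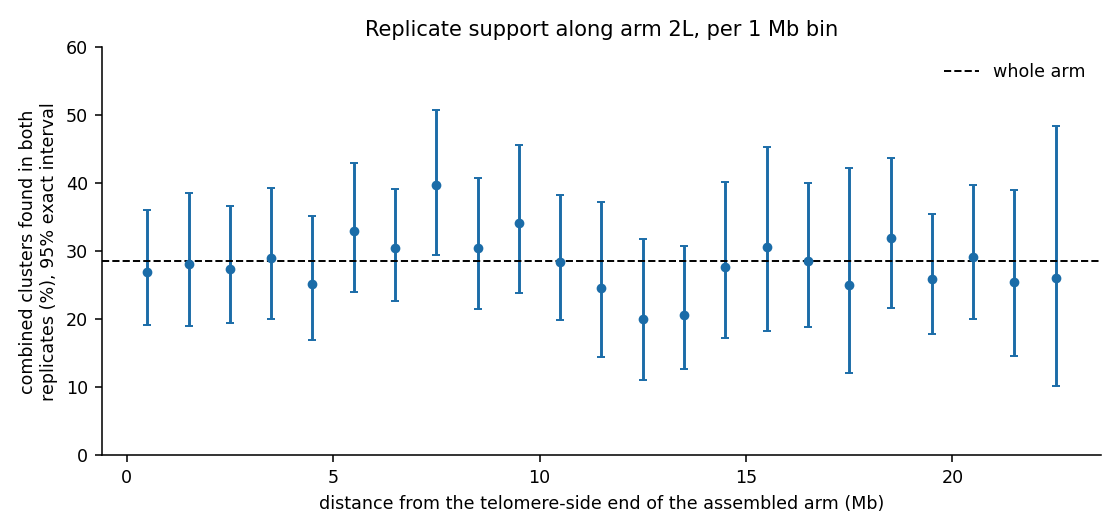
Share of combined clusters found in both replicates in each 1 Mb bin of 2L, with its 95% exact interval; the dashed line is the share over the arm, 28.5%. The points lie between 20.0% and 39.8%, and 22 of 23 intervals cross the line.

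Beyond 20 Mb, replicate 2 held more of the clusters that only 1 replicate had. There, 28 of 167 combined clusters (16.8%) were found in replicate 2 only and 17 (10.2%) in replicate 1 only. Over the first 20 Mb the shares were 11.2% and 12.1%. Of the replicate 2 clusters beyond 20 Mb, 59.0% overlapped a cluster of replicate 1, against 70.4% of those before. The bin from 21 to 22 Mb had 28 clusters in replicate 2 and 20 in replicate 1. The difference between replicates at this end was not tested, since each is a single sample.

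Width set apart clusters with and without replicate support. Combined clusters on 2L had a median width of 1753.5 bases, from 1001 to 13732. Those found in both replicates had a median of 2589 bases and none was narrower than 1555. Those found in replicate 1 only had 1868 bases and those in replicate 2 only 1893. Clusters found in neither had a median of 1259 bases. The replicate lists themselves held no cluster narrower than 1302 bases on 2L, and 56.0% of the clusters found in neither were narrower than that.

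In 5 classes of equal size by width, 0 of 378 clusters of the narrowest class and 0 of 377 of the next were found in both replicates. The narrowest class ended at 1176 bases, below the 1302 bases of the narrowest replicate cluster. Its 0 therefore cannot be told apart from the width limits of the lists. The share found in both was 8.75% in the third class, 61.0% in the fourth and 72.9% in the widest, from 2519 bases up. By score, it stayed between 8.47% and 26.0% in the 4 lower classes and reached 85.1% in the highest, with scores from 0.510 up. The combined list comes from the same samples as the replicate lists, so these shares describe how the lists relate and are no separate evidence of binding.

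Score and width were related in some bands of width, and these bands were chosen after the plot was seen. From 1001 to 1300 bases, wider clusters had lower scores, with a Spearman's rho of -0.39 over 531 clusters. Little relation was seen from 1301 to 1600 bases (rho -0.077, 275 clusters) and from 1601 to 1900 bases (rho -0.0094, 261 clusters). Between 1901 and 2100 bases wider clusters had higher scores, with a rho of 0.75 over 218 clusters. From 2101 to 2300 bases the rho was -0.17, and it was -0.14 from 2301 to 3000 bases. It was 0.076 from 3001 to 5000 bases and 0.29 over the 46 clusters from 5001 bases up.

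The share found in both replicates stepped up over the same widths. It was 5.75% from 1601 to 1900 bases, 44.0% from 1901 to 2100 and 69.7% from 2101 to 2300 bases. Replicate lists had a like step in score, with medians of 0.483 and 0.531 from 1601 to 1900 bases and 0.834 and 0.845 from 2101 to 2300 bases. How the authors' program sets the borders of a cluster was not tested.

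**Figure D4:**
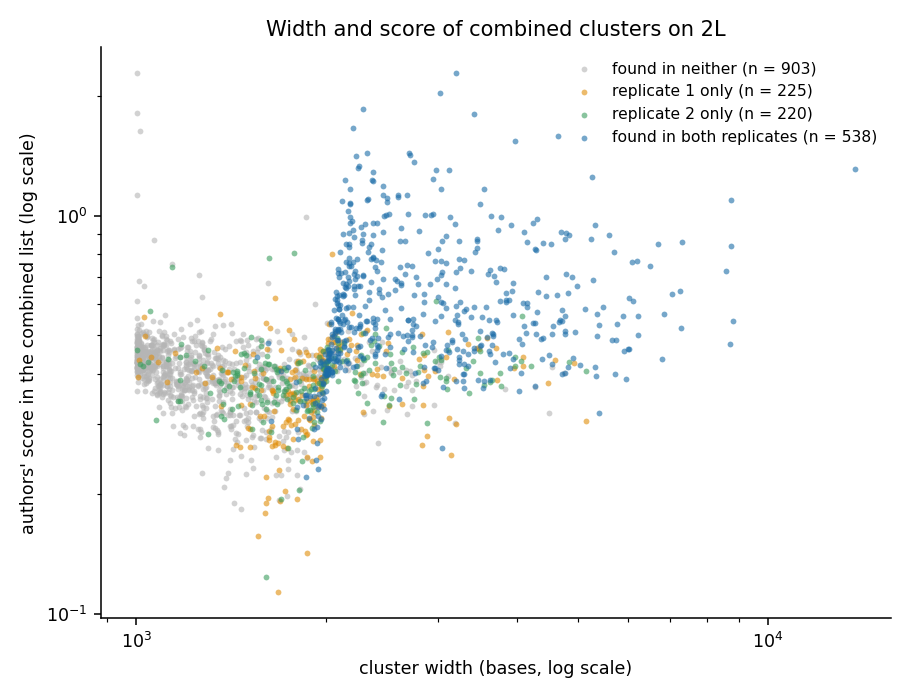
Width (bases, log scale) and authors' score (log scale) of the 1886 combined clusters on 2L, coloured by replicate support. Clusters found in neither replicate gather below 1900 bases, scores climb steeply between 1901 and 2100 bases, and 4 narrow clusters found in neither reach scores of 1 or more.

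The strongest clusters were almost all found in both replicates. Of 51 combined clusters with a score of 1 or more, 47 (92.2%) were, against 28.5% of all combined clusters on 2L. These 47 were 2115 to 13732 bases wide with a median of 2595. The combined list comes from the same samples, so this share is no separate evidence of binding. Score is the authors' value for a region and has no stated scale, so scores of different lists are set side by side below without saying which list was higher. The strongest 50 of each replicate also lay largely in the same places. Of the 50 highest in replicate 1, 35 overlapped one of the 50 highest in replicate 2. All 50 overlapped some cluster of replicate 2, against 69.0% of all replicate 1 clusters on 2L. In the other direction 49 of 50 did, against 69.3% of all replicate 2 clusters on 2L.

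The highest cluster of the arm was 2L:13877066-13880267, of 3202 bases, which scored 2.28 in the combined list. Replicate 1 scored it 2.30 and replicate 2 scored it 2.51. It stood apart from its neighbours, by 38603 bases on the telomere side and 13060 on the other. The second among those found in both replicates, 2L:14597723-14600745, scored 2.03 in the combined list, 2.34 in replicate 1 and 1.63 in replicate 2. It was the highest cluster of 2L in replicate 1, while the first was the highest in replicate 2.

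Of the next, 2 lay in the same 200 kb bin. The cluster 2L:8540481-8542765 scored 1.86 in the combined list, 2.15 in replicate 1 and 1.48 in replicate 2. The cluster 2L:8484583-8488006 scored 1.80, with 2.33 in replicate 1 and 1.86 in replicate 2. In this second region the combined cluster, of 3424 bases, was wider than either replicate's, at 2299 and 2294 bases.

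On the telomere side, 2L:3171982-3174187 scored 1.66 in the combined list, 1.92 in replicate 1 and 1.32 in replicate 2. At 2206 bases it was the narrowest of the 10 highest, and 67309 empty bases followed it. The cluster 2L:2008081-2012049 had 1.54, with 1.77 and 1.24 in the replicates. Closest to the telomere was 2L:522229-524944 with 1.42 (1.51 and 1.39), inside the run of 17 clusters.

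The remaining high clusters lay between 9 and 16 Mb. The cluster 2L:13546744-13551387 had 1.58, with 1.59 and 1.67 in the replicates. At 2L:15761417-15763734 the combined score was 1.44 and the replicates gave 1.47 and 1.46. At 2L:9781364-9784067 it was also 1.44, with 1.50 in each replicate. By position, 3 of the 10 lay in the first 5 Mb, 3 between 8 and 10 Mb, 4 between 13 and 16 Mb and 0 beyond. Beyond 16 Mb, 9 clusters found in both replicates had scores of 1 or more.

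**Figure D5:**
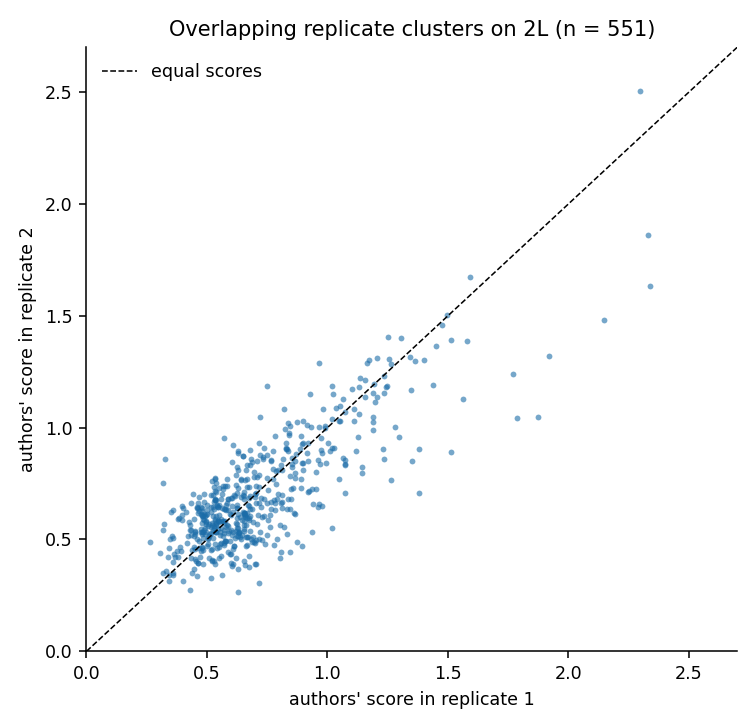
Scores of 551 overlapping clusters of replicate 1 (x axis) and replicate 2 (y axis) on 2L, each the authors' score; the dashed line marks equal numbers, whose scale is not stated. Clusters with a high score in 1 list tended to have one in the other, with a Spearman's rho of 0.69.

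Over all 551 overlapping pairs, the scores had a Spearman's rho of 0.69 and a Pearson's r of 0.81. For their widths the rho was 0.56 and Pearson's r 0.61. These are correlations across clusters of 1 pair of libraries. The centres of paired clusters lay a median of 104.5 bases apart, and 70.8% lay within 250 bases, against a median overlap of 1951 bases.

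Wide clusters lay mostly in the dense distal part of the arm, which also held more clusters of any width. On 2L 46 combined clusters were 5 kb or wider. Of these, 44 were found in both replicates, against 28.5% of all combined clusters on 2L. A wider cluster meets an overlap of 1 base more easily, so this contrast is no separate evidence of binding. The first 5 Mb held 17 and the next 16, against 2 from 10 to 15 Mb, 7 from 15 to 20 Mb and 4 beyond. Combined clusters of any width numbered 505, 493, 380, 341 and 167 in these stretches. Of the 10 widest, 8 lay before 7 Mb.

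The widest was 2L:11999661-12013392, of 13732 bases, with a combined score of 1.31. In replicate 1, 2 clusters took up 10849 of its bases, and in replicate 2, 2 clusters took up 12869. The next were 2L:6087147-6095931 with 8785 bases, of which replicate 1 covered 4862 and replicate 2 covered 5962, and 2L:5976523-5985268 with 8746 bases, of which the replicates covered 7094 and 7984. A nearby wide cluster, 2L:6042671-6049726, had 7056 bases, with 3574 and 5189 covered.

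Agreement on these wide regions varied. At 2L:2195305-2204039, of 8735 bases, the replicates covered 8254 and 8020 bases, nearly the whole cluster. At 2L:5318283-5326990, of 8708 bases, they covered 1787 and 5763. The cluster 2L:483592-492152 had 8561 bases, with 4756 and 3631 covered, and 2L:4451503-4458793 had 7291, with 2744 and 5142. At 2L:2749122-2756416, of 7295 bases, replicate 1 covered 4742 and replicate 2 covered all 7295. The one beyond 15 Mb was 2L:16283793-16291055, of 7263 bases, with 5427 and 2844 covered.

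Most supported combined clusters matched a single cluster of a replicate. Of the 763 combined clusters found in replicate 1, 730 held 1 of its clusters and 33 held 2 or more, and of the 758 found in replicate 2, 723 held 1 and 35 held 2 or more. In the other direction, 3 clusters of replicate 1 and 11 of replicate 2 spanned 2 or more combined clusters. Combined clusters found in both replicates were wider than the full span of the replicate clusters on them in 457 of 538 cases, with a median ratio of 1.04.

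Few replicate clusters were left outside the combined list, 4 of replicate 1 and 9 of replicate 2. The highest of replicate 1 was 2L:3863473-3865024, with a score of 0.699, and lay 915 bases from a combined cluster. The others of replicate 1 were 2L:7924834-7926329 with 0.686, 2L:17510405-17511708 with 0.551 and 2L:10865853-10867193 with 0.516. In replicate 2 the 5 highest ran from 0.558 at 2L:16842622-16843995 to 0.705 at 2L:4329601-4330989. Between these came 2L:4871237-4872608, 2L:1391955-1393388 and 2L:19391271-19392637. None of the 4 or 9 overlapped a cluster of the other replicate.

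A few high scores lacked replicate support, and 4 of the 5 highest of these were about 1 kb wide. The cluster 2L:21538532-21539532, of 1001 bases, had a combined score of 2.28, the second highest of the arm, yet the nearest cluster of replicate 1 was 82998 bases away and that of replicate 2 63064 bases away. The clusters 2L:21653590-21654590 and 2L:19620213-19621224 scored 1.82 and 1.63, and 2L:6997742-6998742 scored 1.13. A width of 1001 bases was the smallest on 2L and was shared by 32 clusters, all found in neither replicate. Among clusters found in neither, width and score had a Spearman's rho of -0.40, against 0.27 among those found in both. Pearson's r was weaker, at -0.17 and 0.10.

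The last of the 5, 2L:21458455-21460307 with a score of 0.993, opened an evenly spaced row of 5 clusters, chosen for description after its values were seen. The others were 2L:21463521-21465143, 2L:21468420-21470196, 2L:21474120-21475258 and 2L:21479136-21480275. Their starts lay 4899 to 5700 bases apart and their scores ran from 0.742 to 0.993, above those of 92.4% of the clusters on 2L. Replicate 2 had clusters on 3 of them, with scores of 1.07, 1.06 and 1.07, while the nearest cluster of replicate 1 lay 60091 bases from the row. As background, the tandem array of replication-dependent histone genes lies on 2L, toward the centromere. A gene table of release 6 lists 111 such genes on 2L and 0 on the other arms. Its positions were not set beside these clusters, and whether the row lies in that array was not tested.

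The next cluster along the arm was described by its support too. A cluster found in both replicates was followed by another such cluster in 26.2% of cases. One found in neither was followed by a cluster found in both in 30.3%. Both values lay near the share of all combined clusters on 2L found in both, 28.5%. Clusters found in replicate 2 only lay closest to a cluster found in both, at a median of 5432 bases. The median was 9196 bases for replicate 1 only, 8444 for neither, and 9489 between clusters found in both themselves. The difference between the single-replicate classes rests on 1 library each and was not tested.

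Beside the other large arms (X, 2R, 3L and 3R), 2L was the emptiest. The combined list had 82.0 clusters per Mb on 2L and 90.8 to 112.1 on the other 4. The replicates had 34.7 and 34.4 clusters per Mb on 2L (mean 34.5 ± 0.184, SD, n = 2). The lowest of the other large arms, X, had 36.3 and 36.6. The gap to X was larger than the spread between replicates, and no test was run. Median width, with 1753.5 bases against 1705.5 to 1794 on the others, and the Jaccard index of the replicates, with 0.499 against 0.448 to 0.513, lay within the range of those arms. So did the share found in both replicates, with 28.5% against 25.1 to 29.5%, and the share of clusters of 5 kb or more, with 2.44% against 2.33 to 3.80%. The variance of counts in 1 Mb bins over their mean, 8.11, also lay between those of the other arms, which ran from 4.74 to 9.12.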

How the data were processed

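Each list gives enriched regions in FlyBase release 5 coordinates, per the file headers, with 1 score per region that the authors deposited without a stated scale. The submitters' processing notes name Bowtie 0.12.7, an aligner. Not given in the sources used here are the calling program, its threshold and the way of combining replicates. Per the labels, input replicate 1 served for ChIP replicate 2 and input replicate 2 for ChIP replicate 1. Inputs were not analysed here. The lists hold no read counts, so depth is unknown.

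Clusters were assigned to bins by their midpoint, and spacing is the number of bases between neighbouring clusters. Shares carry exact 95% intervals. No hypothesis test was run, since 2 replicates of 1 condition allow none between samples. The functions were tested on simulated lists. Regions named were the 10 highest clusters found in both replicates, the 10 widest, the 5 highest found in neither, the 5 longest empty stretches, the 5 fullest 200 kb bins and the empty one, the longest runs, the end clusters, and up to 5 clusters per replicate outside the combined list. Members and lists were chosen with earlier results of these data known. Positions relative to genes were not analysed, because the gene table at hand is of release 6. Software was Python 3.11.15, NumPy 2.4.6, pandas 2.3.3, SciPy 1.17.1 and Matplotlib 3.10.9. The alternatives were a 50% overlap, scores above the median of each list, joining within 500 bases, single replicates, and other bins and bounds.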

Additional observations from a re-analysis of the deposited data

How the results depend on the processing

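For 10 results, 47 alternatives were run. Of these, 13 left the value in place, 34 moved it and 0 reversed it. In place meant within its interval or replicate spread. For clusters per Mb it meant within 1.5 times, and for the Jaccard index unchanged as rounded here. Only the ratio of cluster density at the centromere end to that before it has a direction that could reverse. The other results are shares, counts, lengths or indices without a direction, so the 0 says nothing about them. Joining clusters within 500 bases gave shares of 31.7% in both replicates and 45.3% in neither, a median spacing of 5115 bases, a median width of 1881.5 and a variance over mean of 5.62. Scores above the median gave 35.2 clusters per Mb, a spacing of 13471 bases, a width of 2146.5, a variance over mean of 4.98, a longest empty stretch of 459.97 kb, a Jaccard index of 0.462 and 60.7% of replicate 1 clusters shared; this setting keeps fewer clusters. Leaving out 1 replicate, the other held 40.2 to 40.5% of the combined clusters and lacked 59.5 to 59.8%, since 1 list then decides. The lists of replicates 1 and 2 alone gave 34.7 and 34.4 clusters per Mb, spacings of 13373 and 11914 bases, widths of 1984 and 1940.5, variances over mean of 3.95 and 4.12, and longest empty stretches of 706.3 and 704.7 kb. With clusters found in at least 1 replicate that stretch was 704.6 kb. The covered length, 165.6 kb per Mb, was entered as an alternative to clusters per Mb. It has another unit, so its place among the 34 says nothing about that value.

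The density beyond 20 Mb was 0.645 times that before. It was 0.807 times with a bound at 18 Mb, 0.450 with 21 Mb and, added after seeing the data, 0.838 with the sequence beyond 22 Mb left out, so the last Mb accounts for part of the value. The variance over mean was 5.54 in bins of 500 kb, 7.60 in bins of 2 Mb and 6.88 in shifted bins. What caused the other shifts was not tested. Sequencing depth behind the lists is unknown. No paired analysis was possible because no test between groups was run, as input lists were not analysed here. Cluster positions relative to genes were not run.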

Other observations

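Set beside gene number, 2L still had the fewest clusters of the large arms. A RefSeq gene table of release 6 places 2657 protein-coding genes on 2L. For every 100 of these the combined list had 71.0 clusters, replicate 1 had 30.0 and replicate 2 had 29.8. On the other large arms the values were 81.4 to 94.0 in the combined list, 33.5 to 37.1 in replicate 1 and 33.8 to 37.3 in replicate 2. Gene numbers and clusters come from different releases, and no cluster was assigned to a gene. The 111 replication-dependent histone genes of that table all lie on 2L, and values without them were not computed.

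The separate heterochromatic sequence 2LHet, of 368.9 kb, held 3 combined clusters and 1 in each replicate. It is not part of the arm as described above.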
